A study of Mus musculus with 6 samples.

Results

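Cytosolic chaperones and heat shock genes were followed in mouse liver after tunicamycin. The 44 genes were chosen by name: the heat shock transcription factors, the HSP70, HSP110, HSP90 and small heat shock families, the DNAJ and BAG proteins, HSP90 and HSP70 co-chaperones, the CCT ring and prefoldin. Of these, 41 had a probe under that symbol on the Illumina bead array, and 35 could be tested, among 9328 tested of 19057 named genes on the array. Treated liver came from C57Bl/6N mice aged 8 weeks, given tunicamycin at 2.5 mg/kg intraperitoneally 12 hours earlier (3 arrays). Control liver came from mice of the same strain and age given an equal volume of vehicle (3 arrays); the drug was taken up in DMSO and diluted in PBS with glucose, and the makeup of the vehicle itself is not spelled out. Whole liver was used, so fewer cells of a type and less RNA per cell cannot be told apart. The labels name no sex, no pooling of animals and no chip or scan batch, and p-values measure the spread between these arrays, which may be technical in part.

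Chaperones of the cytosol hold unfolded proteins, keep them from clumping and let them fold. HSP70 proteins bind and release short unfolded stretches in a cycle driven by ATP; DNAJ proteins (HSP40) bring substrates and start ATP hydrolysis, while BAG and HSP110 proteins act as nucleotide exchange factors that end the cycle. HSP90 finishes the folding of kinases and steroid receptors with its own co-chaperones, and prefoldin passes newly made actin and tubulin to CCT, a ring of related subunits. When cytosolic proteins unfold, the factor HSF1 binds heat shock elements in DNA and raises many of these genes. Tunicamycin blocks N-glycosylation, so its primary site of protein damage is the endoplasmic reticulum (ER), where another set of chaperones works.

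Each array read 45281 probes, of which 15503 to 16603 had a detection p under 0.05, the chance that a blank bead would be as bright. Values below are normalized log2 intensities after background correction, on which 1 unit is a 2-fold difference, and the lowest detected probe of an array lay at 4.51 to 4.59. The correlation across items, which are not independent replicates, was 0.989 to 0.995 between arrays within a group and 0.889 to 0.903 between a tunicamycin and a vehicle array. Levels of different genes are not compared, since each probe has its own brightness. Hepatocyte markers were bright, with a median log2 intensity of 12.22 over the 6 tested of 8. Alb and Tat were not tested, for want of either a probe under that symbol or detection of it. Of these 6, Ttr, Serpina1a, Cps1 and Hnf4a fell, or 66.7%, where 31.4% of all items fell, and 0 rose. The median difference of the 6 was -0.51 on the log2 scale. Their summed normalized intensity was 42650 to 45930 after tunicamycin, against 55310 to 61210 after vehicle; the part of this shift in the members' values was not tested. The 9 members without a test comprised Hsf1, Hsp90ab1 and Dnaja4, which are not analysed here because no probe carried their symbol, and Hspa1b, Hspa14, Bag2, Cct2, Cct5 and Cct7, whose brightest probe was detected on fewer than 3 of 6 arrays.

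After tunicamycin, cytosolic chaperone genes moved in both directions and mostly by small amounts. Of the 35 tested members, 14 rose, 7 fell and 14 did not pass the test (limma, adjusted p under 0.05). The strongest rise was in Bag3, an HSP70 exchange factor linked to autophagy of misfolded proteins, at 3.19-fold, and the strongest fall was in Fkbp4, an HSP90 partner of steroid receptors, at 3.25-fold. Only these and Pfdn4, Hsph1 and Hspa2, 5 of 35 members, were called with a change of at least 2-fold, where 22.6% of all items did so. The test called 62.5% of all 11674 items, 31.0% as rises and 31.4% as falls, so 21 called members of 35 is close to the background and not a result about these genes. The members' median log2 fold change was 0.09, against -0.01 over all items. For 23 of 35 members the arrays of the groups did not overlap, with a background of 66.7%.

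**Figure D1:**
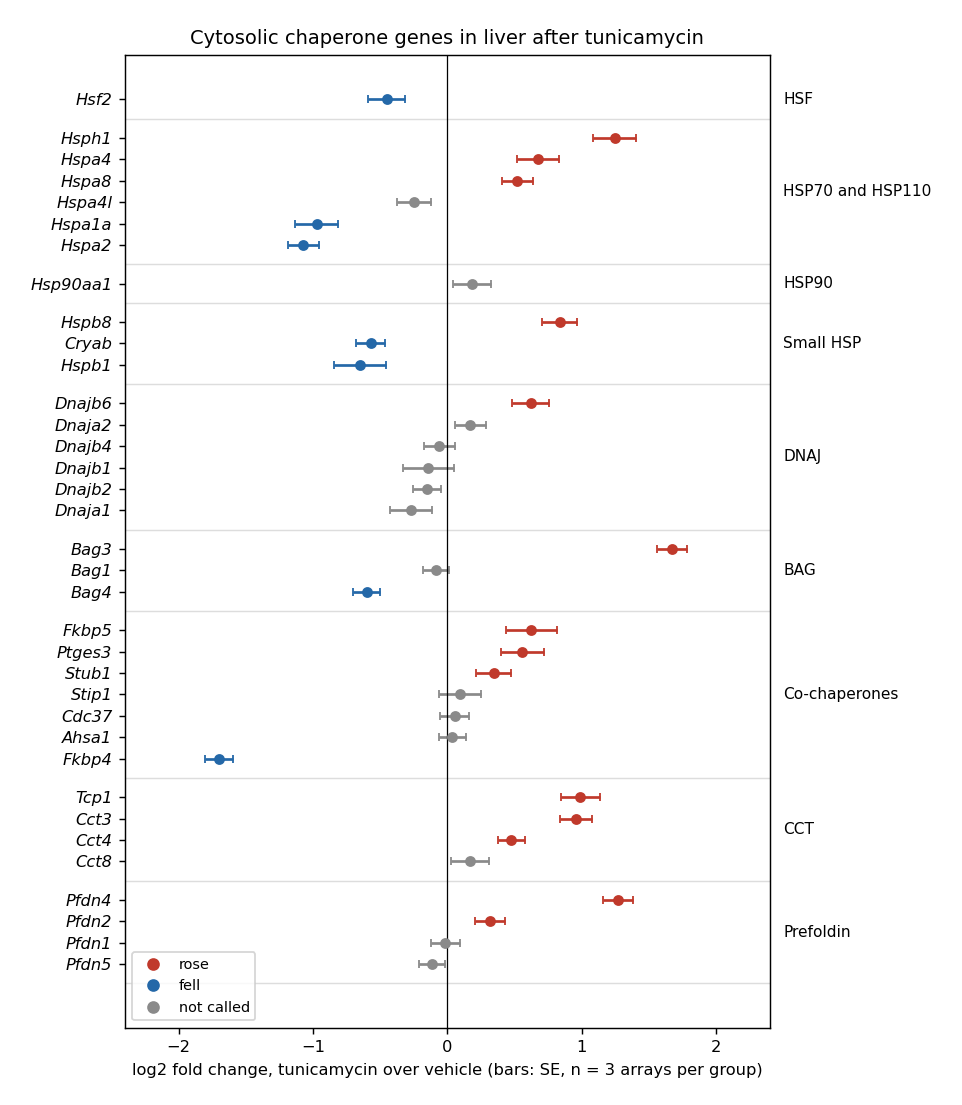
Log2 fold change, tunicamycin over vehicle, of the 35 tested members, grouped by family; points are the limma estimates, bars the standard error with 3 arrays per group, red rises, blue falls and grey members that did not pass the test. Bag3 stands farthest right at 1.67 and Fkbp4 farthest left at -1.70, and no tested CCT or prefoldin gene is blue.

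HSF1 acts through heat shock elements, runs of GAA and TTC units spaced by 2 bases. Shown are the promoters of the 5 members changed at least 2-fold, with or without such an element, and of 4 further members that were picked because they hold a core. RefSeq promoter windows (GRCm38.p6, 250 bases before to 50 after a gene's start) were matched by symbol for 36 of the 44 members, 47 windows in all. Hspa8, Cct4, Bag4, Cryab, Hsp90aa1, Hsp90ab1, Hsf1 and Pfdn1 had no window and were not searched. The first set is Bag3 at chr7:128523333-128523632 (plus strand), Hsph1 at chr5:149636266-149636565 (minus), Pfdn4 at chr2:170496178-170496477 (plus), Hspa2 at chr12:76404120-76404419 (plus) and Fkbp4 at chr6:128438607-128438906 (minus). The second is Dnajb6 at chr5:29735648-29735947 (plus), Hspb8 at chr5:116422815-116423114 (minus), Hspb1 at chr5:135887669-135887968 (plus) and Hspa1a at chr17:34972107-34972406 (minus). Each is written 5′ to 3′ along its gene, with heat shock element cores of at least 2 units in capitals; Pfdn4 and Hspa2 hold none.
Bag3: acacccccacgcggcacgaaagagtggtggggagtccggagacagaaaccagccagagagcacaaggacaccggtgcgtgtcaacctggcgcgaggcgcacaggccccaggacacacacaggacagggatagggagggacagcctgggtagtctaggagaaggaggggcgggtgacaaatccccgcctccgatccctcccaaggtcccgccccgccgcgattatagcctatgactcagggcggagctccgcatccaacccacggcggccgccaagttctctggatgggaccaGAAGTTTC
Hsph1: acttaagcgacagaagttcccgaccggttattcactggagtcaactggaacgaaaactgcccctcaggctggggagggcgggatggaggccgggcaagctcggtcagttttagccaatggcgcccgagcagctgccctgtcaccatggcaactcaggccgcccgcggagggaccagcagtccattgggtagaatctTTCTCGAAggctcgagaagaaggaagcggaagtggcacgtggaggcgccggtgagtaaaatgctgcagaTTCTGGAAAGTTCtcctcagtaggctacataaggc
Pfdn4: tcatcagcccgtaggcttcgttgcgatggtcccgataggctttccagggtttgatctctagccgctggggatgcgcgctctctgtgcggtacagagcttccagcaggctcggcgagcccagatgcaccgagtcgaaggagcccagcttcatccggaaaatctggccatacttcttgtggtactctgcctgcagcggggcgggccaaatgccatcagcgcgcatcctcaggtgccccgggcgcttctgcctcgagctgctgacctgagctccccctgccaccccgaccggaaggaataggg
Hspa2: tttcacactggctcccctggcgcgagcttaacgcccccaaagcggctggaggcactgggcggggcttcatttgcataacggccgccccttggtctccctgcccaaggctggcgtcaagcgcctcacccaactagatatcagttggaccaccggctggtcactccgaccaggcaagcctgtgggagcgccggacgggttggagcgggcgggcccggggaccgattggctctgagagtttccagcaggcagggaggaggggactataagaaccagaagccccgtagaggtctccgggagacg
Fkbp4: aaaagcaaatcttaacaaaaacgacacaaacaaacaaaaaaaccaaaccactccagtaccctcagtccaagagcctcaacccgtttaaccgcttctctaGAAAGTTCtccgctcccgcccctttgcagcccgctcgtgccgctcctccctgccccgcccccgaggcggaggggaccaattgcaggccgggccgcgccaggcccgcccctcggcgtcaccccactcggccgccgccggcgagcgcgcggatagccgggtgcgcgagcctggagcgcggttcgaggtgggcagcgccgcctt
Dnajb6: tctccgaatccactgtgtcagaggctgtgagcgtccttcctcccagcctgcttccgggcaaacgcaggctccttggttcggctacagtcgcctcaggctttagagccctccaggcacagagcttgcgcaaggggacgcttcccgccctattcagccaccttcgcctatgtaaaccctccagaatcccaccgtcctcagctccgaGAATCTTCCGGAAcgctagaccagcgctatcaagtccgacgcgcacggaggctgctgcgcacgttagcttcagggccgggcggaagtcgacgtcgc
Hspb8: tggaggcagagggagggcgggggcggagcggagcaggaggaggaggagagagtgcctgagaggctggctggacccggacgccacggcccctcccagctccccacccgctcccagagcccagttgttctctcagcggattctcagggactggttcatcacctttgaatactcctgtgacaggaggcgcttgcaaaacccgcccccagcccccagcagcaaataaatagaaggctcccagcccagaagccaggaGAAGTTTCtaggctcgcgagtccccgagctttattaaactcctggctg
Hspb1: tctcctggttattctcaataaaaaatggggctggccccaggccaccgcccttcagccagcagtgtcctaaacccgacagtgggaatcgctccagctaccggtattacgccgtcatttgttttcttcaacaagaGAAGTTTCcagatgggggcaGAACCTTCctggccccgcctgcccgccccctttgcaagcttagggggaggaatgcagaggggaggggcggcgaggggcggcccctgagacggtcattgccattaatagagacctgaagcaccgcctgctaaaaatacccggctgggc
Hspa1a: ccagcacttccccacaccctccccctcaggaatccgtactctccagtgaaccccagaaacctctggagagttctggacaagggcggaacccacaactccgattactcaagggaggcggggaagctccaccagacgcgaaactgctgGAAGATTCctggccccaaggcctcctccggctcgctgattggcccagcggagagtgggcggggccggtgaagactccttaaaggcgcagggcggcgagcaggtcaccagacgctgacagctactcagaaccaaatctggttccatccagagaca
A core of 3 alternating units (GAA, TTC, GAA or TTC, GAA, TTC, each spaced by any 2 bases, so that both strands are covered) occurred in 2 of 36 members, Hsph1 and Dnajb6, against 0.662% of 27025 genes with a window. In the Hsph1 window it began 16 bases after the start site, and in the Dnajb6 window 46 bases before it. The shorter cores GAANNTTC and TTCNNGAA, which read alike on both strands and lie within the longer core, occurred in 15 members, or 41.7%, against 17.0% of all genes. Among members with a window, these were 5 of the 12 that rose, 3 of the 5 that fell, 3 of the 12 that did not pass the test and 4 of the 7 without a test. A short core was thus present in genes called as rises (Bag3, Dnajb6, Hspb8, Hsph1, and Stub1, whose probes disagree in direction) and in genes called as falls (Fkbp4, Hspa1a, Hspb1). Of these falls, Hspa1a met the detection filter through the vehicle arrays alone, and the Hspb1 call was lost in 3 of 17 settings. The windows of Pfdn4, Tcp1 and Cct3, which rose, and of Hspa2, which fell, held none. These letter matches describe the windows and do not show that a factor binds there.

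Of the heat shock factors, Hsf2 was the gene with a value. Hsf2, a relative of HSF1 known from development, read 4.42, 4.76 and 4.54 in tunicamycin liver, against 5.26, 4.86 and 4.96 in vehicle liver. The groups did not overlap, though every value lay within 1 unit of the lowest detected signal, and Hsf2 was detected on 2 of 3 tunicamycin arrays. Its log2 fold change was -0.45 ± 0.14 (SE, adjusted p = 0.0164). Its other kept probe gave 0.00 ± 0.13, and the call ended in 5 of 15 alternative settings, among them without tunicamycin replicate 1 (adjusted p = 0.0659) and without vehicle replicate 1 (0.0513).

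The HSP70 and HSP110 family split. Of 6 tested members of 8, 3 rose, 2 fell and 1 did not pass the test, with log2 fold changes spread between -1.07 and 1.25. Rises were 50% and falls 33.3%, where 31.0% of all items rose and 31.4% fell. Calls in both directions are thus common on this array, and the split is no result about this family. Hspa8, the constitutive HSP70 called HSC70, read 13.09, 13.07 and 13.22 in tunicamycin liver and 12.44, 12.64 and 12.73 in vehicle liver. All 3 tunicamycin arrays were above all vehicle arrays, a rise of 1.43-fold (log2 fold change 0.52 ± 0.11, adjusted p = 0.00249). With 1 median per array in place of quantile normalization, its value was 0.37 and the call ended (adjusted p = 0.107).

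Hspa1a, the heat-inducible HSP70 that is a standard readout of HSF1 activity, showed no rise by its brightest probe. Its dimmer probes, with mean raw signals of 91.2 and 89.8, were detected on 0 of 6 arrays, and HSF1 activity itself was not tested. The brightest Hspa1a probe is the one described next. It read 4.21, 4.33 and 4.26 in tunicamycin liver, where it was not well above background on any array, against 5.02, 5.64 and 5.06 in vehicle liver, where it was detected on all 3. With the settings used here it was at least 1.61-fold lower after tunicamycin (limma, adjusted p = 0.000443). The size depended on the background step, so 1.61-fold is no lower bound across settings. Its log2 fold change was -0.27 without background correction and -0.44 with an offset of 50. Hspa1a met the detection filter through the vehicle arrays alone, so its place among the tested genes depended on its being higher there, and its count among the falls is no support for a fall; with no detection filter its adjusted p was 0.00623. Its near twin Hspa1b had raw signals of 89.1, 94.3 and 93.9 after tunicamycin and 97.7, 99.0 and 96.0 after vehicle, with detection on 2 of 6 arrays, and was not tested. The promoter windows of Hspa1a and Hspa1b differ at 4 of 300 bases, and probes for such similar genes can bind either transcript, so the value is uncertain for a single gene. Hspa2, an HSP70 best known from testis, read 5.33, 5.41 and 5.54 in tunicamycin liver and 6.61, 6.35 and 6.54 in vehicle liver. It fell 2.10-fold by this probe (log2 fold change -1.07 ± 0.11, adjusted p = 1.92e-05), while a dimmer kept probe gave -0.20 ± 0.12. The size depended on the background step: the log2 fold change was -0.44 without background correction and -0.69 with an offset of 50, both under 2-fold.

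HSP110 genes encode exchange factors for HSP70. Hsph1 (HSP105) read 9.56, 9.66 and 10.17 in tunicamycin liver, against 8.42, 8.67 and 8.56 in vehicle liver. Every tunicamycin array was higher by more than the spread within either group, and replicate 3 was the highest. The rise was 2.37-fold (log2 fold change 1.25 ± 0.16, adjusted p = 7.63e-05). Hspa4 (APG-2) read 4.98, 5.34 and 5.45 after tunicamycin and 4.48, 4.44 and 4.83 after vehicle, where it was detected on 1 of 3 arrays; it rose 1.60-fold (adjusted p = 0.00333). Its place among the tested genes depended on the tunicamycin arrays, where it was higher. Without background correction its log2 fold change was 0.18 (adjusted p = 0.0243), against 0.68 here. Hspa4l, a close relative, read 4.60, 4.39 and 4.57 after tunicamycin and 4.98, 4.74 and 4.57 after vehicle and did not pass the test (adjusted p = 0.122).

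HSP90 was represented by Hsp90aa1, the stress-inducible cytosolic form. It read 6.81, 6.47 and 6.96 in tunicamycin liver and 6.44, 6.63 and 6.63 in vehicle liver. The groups overlapped, and the log2 fold change of 0.18 ± 0.14 did not pass the test (adjusted p = 0.283). This rests on 1 dim probe, with a mean raw signal of 176.6, and the offset understates changes of dim genes. The other Hsp90aa1 probes, with mean raw signals of 91.6 and 89.2, were detected on 1 and 0 of 6 arrays. No value bears on Hsp90ab1, the constitutive form.

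**Figure D2:**
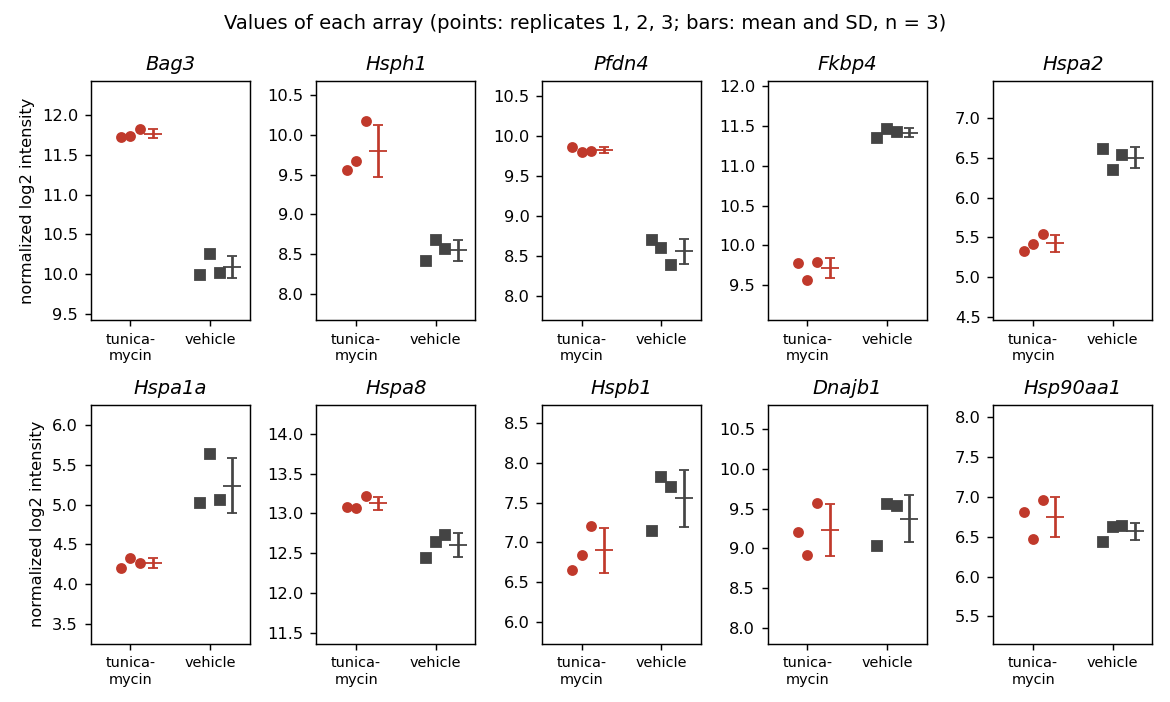
Normalized log2 intensity of 10 members on each array, tunicamycin (red circles) left of vehicle (grey squares), with mean and SD of 3 arrays; every panel spans 3 log2 units. Bag3, Hsph1, Pfdn4, Fkbp4, Hspa2, Hspa1a and Hspa8 do not overlap between the groups, whereas Hspb1, Dnajb1 and Hsp90aa1 do.

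Among the DNAJ co-chaperones, 1 of 6 tested rose, 0 fell and 5 did not pass limma's test. None of these 5 had an unadjusted p under 0.05. Calls were 16.7% of this family, against 62.5% of all items, a difference that was not tested. Dnajb6, which suppresses aggregation of polyglutamine proteins, read 8.62, 8.67 and 8.39 in tunicamycin liver, against 8.19, 7.82 and 7.82 in vehicle liver. The groups did not overlap, and the rise was 1.54-fold (log2 fold change 0.62 ± 0.14, adjusted p = 0.00253). Its other kept probes gave 0.51 ± 0.11 and 0.45 ± 0.11. Dnajb1, the main heat-inducible HSP40, read 9.20, 8.92 and 9.57 after tunicamycin and 9.03, 9.56 and 9.53 after vehicle. Each group had a low and a high array, and the difference of -0.14 ± 0.19 was smaller than the spread between replicates (adjusted p = 0.542). The other 4 lay between -0.27 and 0.17, namely Dnaja1, Dnaja2 and Dnajb4, with overlapping groups, and Dnajb2, a co-chaperone with ubiquitin-binding motifs, whose arrays did not overlap (9.51, 9.51 and 9.46 after tunicamycin, 9.53, 9.63 and 9.75 after vehicle) but whose difference did not pass the test (adjusted p = 0.245). Without tunicamycin replicate 3, Dnaja1, a farnesylated type I HSP40, passed the test as a fall (-0.43, adjusted p = 0.0183).

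The BAG family went 3 ways. Bag3 read 11.73, 11.73 and 11.83 in tunicamycin liver, against 9.99, 10.25 and 10.02 in vehicle liver. The gap between groups was many times the spread within them, with means of 11.76 ± 0.06 and 10.09 ± 0.14 (SD, n = 3 each) and a log2 fold change of 1.67 ± 0.11 (adjusted p = 6.61e-07). Bag4, which was first described as a silencer of death receptors, fell 1.51-fold, with 8.00, 7.97 and 7.89 after tunicamycin and 8.48, 8.62 and 8.55 after vehicle (adjusted p = 0.000493). Bag1, which links HSP70 to the proteasome, read 11.81, 11.88 and 11.84 after tunicamycin and 11.94, 11.93 and 11.91 after vehicle; its groups did not overlap, and its log2 fold change of -0.08 ± 0.10 did not pass the test (adjusted p = 0.483). The probe of Bag2 was detected on 0 of 6 arrays, with raw signals of 87.1 to 99.3.

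Small heat shock proteins hold unfolded clients without ATP. Hspb8, which works with BAG3 in the removal of misfolded proteins, rose 1.79-fold, reading 12.65, 12.43 and 12.81 in tunicamycin liver and 11.76, 11.94 and 11.68 in vehicle liver (log2 fold change 0.84 ± 0.13, adjusted p = 0.000273). The groups did not overlap, and a dimmer probe gave 0.60 ± 0.18. The other small heat shock genes were lower. Hspb1 (HSP25 in mouse) read 6.66, 6.84 and 7.21 after tunicamycin and 7.15, 7.82 and 7.69 after vehicle. Tunicamycin replicate 3 lay above vehicle replicate 1, so the groups overlapped, and Hspb1 fell 1.57-fold (adjusted p = 0.0139), a call that ended without tunicamycin replicate 1 (adjusted p = 0.0591), without vehicle replicate 2 (0.0578) and without the detection filter (0.0853). Cryab (alpha B crystallin) read 4.65, 4.65 and 4.83 after tunicamycin and 5.34, 5.19 and 5.31 after vehicle, a fall of 1.49-fold near background (adjusted p = 0.000946). Without background correction the fall of Cryab was 0.15 on the log2 scale. Stellate cell markers, which a liver sample also holds, fell in 3 of 6 tested genes of 8, or 50%, where 31.4% of all items fell. Their summed normalized intensities were 3378 to 3568 after tunicamycin and 3966 to 4155 after vehicle. Dcn, the largest part of these sums, did not pass the test (adjusted p = 0.235). The part of stellate cells in the values of Cryab and Hspb1 was not tested.

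Co-chaperones of HSP90 and HSP70 held the strongest fall. Fkbp4 (FKBP52), a peptidyl-prolyl isomerase that joins HSP90 on steroid receptors, read 9.78, 9.57 and 9.79 in tunicamycin liver, against 11.35, 11.46 and 11.43 in vehicle liver. All tunicamycin arrays were lower by more than 1.5 units, with a log2 fold change of -1.70 ± 0.11 (adjusted p = 5.06e-07). Fkbp5 (FKBP51), its relative and a target gene of the glucocorticoid receptor, read 6.82, 6.91 and 6.65 after tunicamycin and 6.63, 6.06 and 5.82 after vehicle. Vehicle replicate 1 lay just below the tunicamycin arrays, and the rise of 1.54-fold (log2 fold change 0.63 ± 0.19, adjusted p = 0.0145) was lost without tunicamycin replicate 2 (adjusted p = 0.0558), without vehicle replicate 2 (0.0509), without vehicle replicate 3 (0.0525) and without the detection filter (0.085). Ptges3 (p23), which stabilises the closed form of HSP90, read 6.22, 6.60 and 6.92 after tunicamycin and 6.04, 6.04 and 5.99 after vehicle. It rose 1.47-fold (adjusted p = 0.0123), with a wider spread after tunicamycin (SD 0.35) than after vehicle (0.02).

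Stub1 (CHIP), the ubiquitin ligase that marks HSP70 and HSP90 clients for destruction, had probes that disagreed. The brighter probe read 6.92, 7.25 and 7.10 after tunicamycin and 6.53, 6.90 and 6.80 after vehicle, a difference of 0.35 ± 0.13 on the log2 scale (adjusted p = 0.0435). Its dimmer partner read 5.76, 5.99 and 5.60 after tunicamycin and 5.95, 6.26 and 6.17 after vehicle, a log2 fold change of -0.35 ± 0.13 (adjusted p = 0.0447 over all kept probes). The mean of the probes was 0.00, so the array gives no settled direction for Stub1. Its call ended in 9 of 17 settings, among them without tunicamycin replicate 2 (0.15) or 3 (0.09) and without vehicle replicate 1 (0.128) or 3 (0.0629), all adjusted p-values. Stip1 (HOP), which bridges HSP70 and HSP90, Ahsa1, which speeds HSP90's ATPase, and Cdc37, which brings kinases to HSP90, had log2 fold changes of 0.09, 0.04 and 0.05. Their groups overlapped, with adjusted p-values of 0.623 for Stip1, 0.76 for Ahsa1 and 0.691 for Cdc37.

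The CCT ring folds actin, tubulin and other cytosolic proteins. Of its 4 tested subunits of 7, 3 rose, 0 fell and 1 did not pass the test, with a median log2 fold change of 0.72. Rises were 75%, where 31.0% of all items rose and 31.4% fell. Tcp1 (CCT1) read 10.23, 10.19 and 10.71 in tunicamycin liver, against 9.32, 9.39 and 9.44 in vehicle liver, a rise of 1.99-fold (log2 fold change 0.99 ± 0.14, adjusted p = 0.000181). The dimmer Tcp1 probe gave 0.38 ± 0.12. Cct3 read 11.01, 10.92 and 11.24 after tunicamycin and 9.97, 10.20 and 10.12 after vehicle, a rise of 1.94-fold (adjusted p = 6.46e-05), and its other kept probe gave 1.24 ± 0.12. Cct4 read 11.31, 11.16 and 11.34 after tunicamycin and 10.79, 10.77 and 10.82 after vehicle, a smaller rise of 1.39-fold (adjusted p = 0.00226). In these 3 subunits no tunicamycin array overlapped a vehicle array. Cct8 read 9.49, 9.22 and 9.63 after tunicamycin and 9.35, 9.42 and 9.07 after vehicle, with overlapping groups (0.17 ± 0.14, adjusted p = 0.327). Cct2, Cct5 and Cct7 were detected on 0 of 6 arrays, and Cct2 had raw signals of 93.2, 96.1 and 96.4 after tunicamycin and 94.8, 92.7 and 96.0 after vehicle. Cct6a, a further ring subunit outside the chosen genes, rose 1.98-fold (log2 fold change 0.98 ± 0.14, adjusted p = 0.000201).

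Of the prefoldin subunits, 2 of 4 rose and 0 fell. Pfdn4 read 9.87, 9.80 and 9.82 in tunicamycin liver, against 8.69, 8.60 and 8.38 in vehicle liver. The groups were far apart, and the rise was 2.41-fold (log2 fold change 1.27 ± 0.11, adjusted p = 5.13e-06), with 0.79 ± 0.17 for a dim second probe. Pfdn2 read 10.42, 10.41 and 10.59 after tunicamycin and 10.29, 10.12 and 10.05 after vehicle. Its rise of 1.25-fold (adjusted p = 0.0296) was lost in 5 of 17 settings, with adjusted p-values of 0.0942 with 1 median per array, 0.0521 without tunicamycin replicate 1, 0.0992 without tunicamycin replicate 3, 0.0864 without vehicle replicate 2 and 0.103 without vehicle replicate 3. Pfdn5, also known as a partner of MYC, had log2 fold changes of -0.12 ± 0.10 and 0.08 ± 0.10 from its probes. Pfdn1, near background and detected on 3 of 6 arrays, had -0.02 ± 0.11. Neither passed the test (adjusted p = 0.335 for Pfdn5 and 0.905 for Pfdn1). Over CCT and prefoldin together, 5 of 8 tested genes rose and 0 fell, while over the remaining families 9 of 27 rose and 7 fell. Rises were thus 62.5% and 33.3%, against 31.0% of all items. Calls in either direction were 62.5% and 59.3%, close to the 62.5% of all items. The difference between these groups was not tested.

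**Figure D3:**
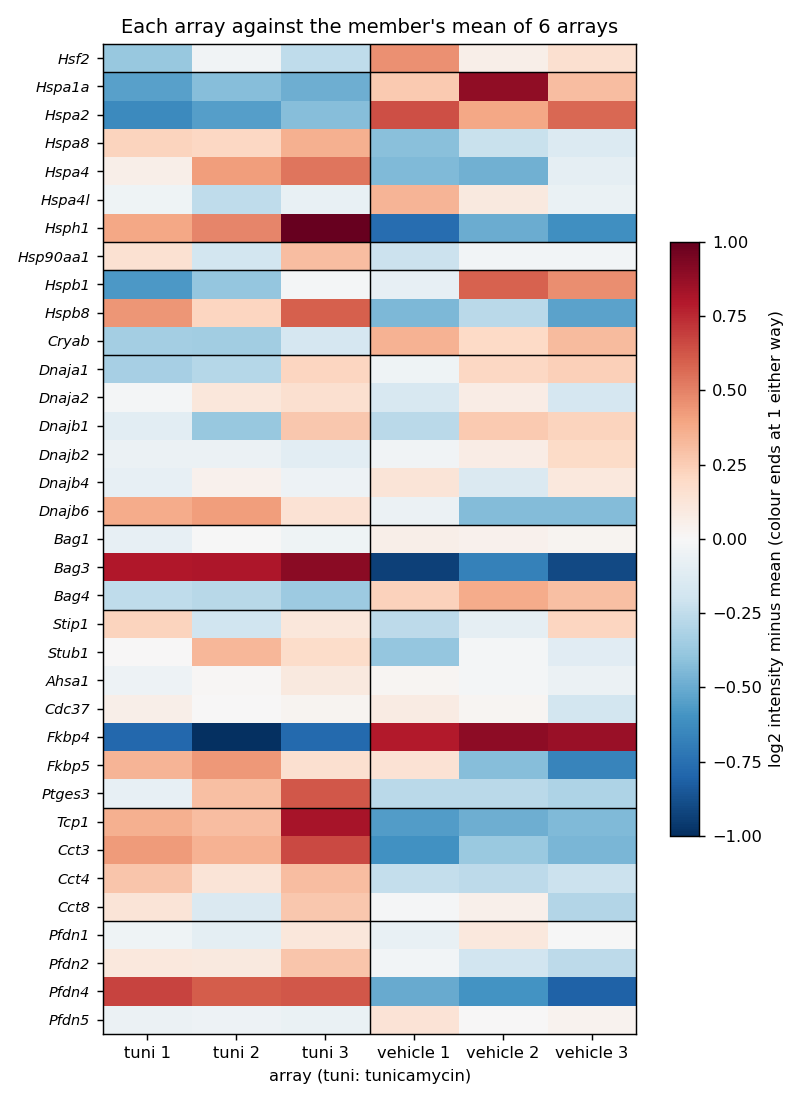
Log2 intensity of each tested member on each array minus its mean over the 6 arrays, tunicamycin arrays left and vehicle arrays right; families are split by lines, red is above and blue below the mean, and the colour ends at 1 unit either way. Bag3, Hsph1, Tcp1, Cct3 and Pfdn4 are red on all tunicamycin arrays, Fkbp4, Hspa2 and Hspa1a are blue there, and tunicamycin replicate 3 is the reddest of its group for many rows.

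Tunicamycin arrays differed among themselves in these genes. Replicate 3 was the highest of the 3 tunicamycin arrays for 21 of 35 members, or 60%, against 34.3% of all items, while replicate 1 was the highest for 5 members and replicate 2 for 9. Hsph1, Tcp1, Ptges3, Hspb1, Dnaja1 and Dnajb1 were among those highest in replicate 3. Vehicle arrays were more even, with the highest value in replicate 1 for 14 members, replicate 2 for 13 and replicate 3 for 8. Leaving out tunicamycin replicate 3 left 12 members that rose and 8 that fell. Markers of Kupffer cells and other macrophages also differed among these arrays. In that list 6 of 7 tested genes of 9 fell, or 85.7%, where 31.4% of all items fell. The list's mean log2 intensity was 5.89, 6.19 and 7.20 on tunicamycin replicates 1, 2 and 3, against 8.09, 7.62 and 7.58 on the vehicle arrays. Its summed normalized intensity spanned 525.2 to 1707 after tunicamycin and 2412 to 3543 after vehicle. Markers of endothelium fell in 3 of 6 tested genes of 7, or 50%, with sums of 514.2 to 625.1 after tunicamycin and 759.1 to 766.9 after vehicle. Neutrophil markers rose in 1 of 3 tested genes of 5, or 33.3%, where 31.0% of all items rose. Cholangiocyte markers were called in 0 of 2 tested of 5 by limma, neither with an unadjusted p under 0.05, and 0 of 5 lymphocyte markers could be tested. The part of these cell types in the members' values was not tested.

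Where the array held several probes for a member, their sizes often differed. Of 10 members with more than 1 kept probe, 4 had probes that differed by over 1.5-fold, and 3 had probes of opposite sign: Hsf2, Pfdn5 and Stub1. Hspa8 had the widest spread. Its brightest probe gave 0.52 ± 0.12 and the next 0.98 ± 0.13, with 12.32, 12.17 and 12.52 after tunicamycin and 11.44, 11.45 and 11.18 after vehicle. The third Hspa8 probe read 9.01, 9.60 and 10.46 after tunicamycin and 9.07, 9.91 and 9.99 after vehicle, a difference of 0.03 ± 0.33. On that probe replicate 1 was the lowest array of each group. The brightest probe, which represents Hspa8, thus lay between the others in size.

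**Figure D4:**
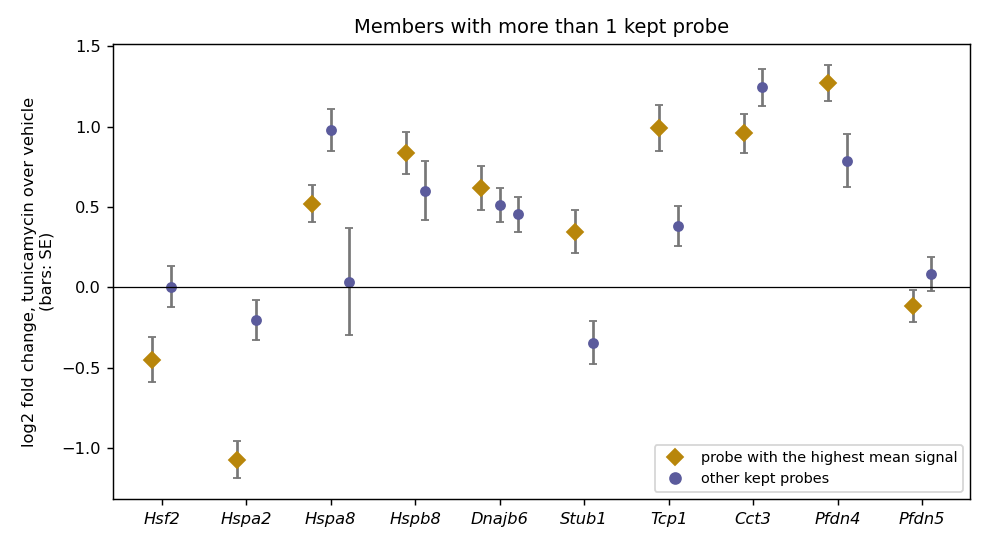
Log2 fold change, tunicamycin over vehicle, for every kept probe of the 10 members with more than 1, in order of brightness; the gold diamond is the probe with the highest mean signal, which represents the gene, and bars are standard errors. Dnajb6, Hspb8, Cct3, Tcp1 and Pfdn4 probes all lie above 0, whereas the Stub1 probes lie on opposite sides of it.

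Other cytosolic chaperone genes formed a list of 51 outside the members. Of 39 tested, 20 rose (51.3%), 3 fell and 16 did not pass the test, with a median log2 fold change of 0.30. Rises made up 40% of the members and 31.0% of all items, and calls in either direction 59% of this list and 62.5% of all items; the difference between the lists was not tested. The largest rises were in Tbcb, a tubulin folding cofactor, at 6.67-fold (log2 fold change 2.74 ± 0.12, adjusted p = 5.23e-08), Pdcl, a phosducin-like CCT partner, at 3.43-fold (1.78 ± 0.15), and Dnajc2, a DNAJ protein of the ribosome, at 2.89-fold (1.53 ± 0.12). Tbcb read 12.34, 12.38 and 12.42 in tunicamycin liver and 9.44, 9.67 and 9.82 in vehicle liver, well outside the spread of either group. Ruvbl2 and Ruvbl1, ATPases that work with HSP90 in complex assembly, rose 2.79-fold and 2.20-fold. Chordc1, an HSP90 co-chaperone whose window held the longer heat shock core, rose 1.86-fold, and Bag5 2.02-fold. Those that fell were Hspb6 at 1.47-fold, Tbcd at 1.38-fold and Hsf4 at 1.34-fold.

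The members' median change was below that of the chaperones of other compartments. ER chaperones, a list of 22, rose in 15 of 17 tested genes and fell in 0, with a median log2 fold change of 2.45, against 0.09 for the members. Rises were 88.2% of this list, where 31.0% of all items rose and 31.4% fell. Creld2 rose 23.5-fold, Sdf2l1 14.6-fold and Hyou1, the ER relative of HSP110, 12.8-fold. Hsp90b1, the ER form of HSP90, read 13.92, 13.98 and 13.99 in tunicamycin liver and 11.47, 11.52 and 11.63 in vehicle liver, a log2 fold change of 2.43 ± 0.10, against 0.18 ± 0.14 for Hsp90aa1. Hspa5 (BiP), the ER HSP70, read 6.39, 6.81 and 6.98 after tunicamycin and 4.37, 4.44 and 4.57 after vehicle, a log2 fold change of 2.26 ± 0.15, against 0.52 ± 0.11 for Hspa8. This Hspa5 probe was detected on 1 of 3 vehicle arrays and lay near the lowest detected signal there, so the size of its rise is uncertain. Mitochondrial chaperones rose in 8 of 13 tested genes of 14 and fell in 3, with a median of 0.67. Rises were 61.5% and falls 23.1% of this list, against 31.0% and 31.4% of all items. Lonp1, a protease, rose 2.94-fold, Clpx 2.30-fold and Grpel1, the exchange factor of mitochondrial HSP70, 2.25-fold. Hspd1 (HSP60), a known heat shock gene whose window also held the longer core, changed by 0.26 ± 0.12 on the log2 scale, which did not pass the test (adjusted p = 0.0839). Hspe1 (HSP10), its partner and the other mitochondrial gene with that core, had 0.21 ± 0.27 with overlapping groups (adjusted p = 0.532). The core of the ER stress element, CCAAT and CCACG spaced by any 9 bases and searched on both strands, occurred in 7 of 18 ER chaperone genes with a window and in 0 of 36 members, against 0.137% of all genes. The differences between these lists and gene pairs were not tested.

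**Figure D5:**
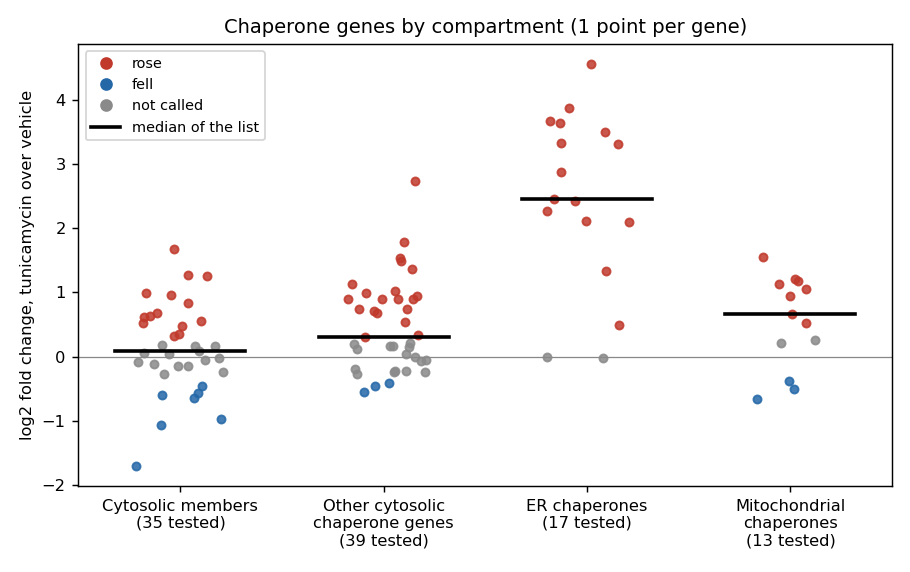
Log2 fold change, tunicamycin over vehicle, of each tested gene in 4 lists (35 cytosolic members, 39 other cytosolic chaperone genes, 17 ER and 13 mitochondrial chaperones); red points rose, blue fell, grey did not pass the test, and black lines are medians of 0.09, 0.30, 2.45 and 0.67. The highest member, Bag3 at 1.67, lies below the median of the ER list.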

How the data were processed

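RNA of 6 mouse liver arrays was measured. Per the file headers, the deposited table of mean bead intensity gives an average signal per probe, which from the values was neither background-subtracted nor normalized, and a deposited detection p-value beside it. The detection columns share 1 name; each was read from the right of its signal, and in 6 of 6 arrays its ranks followed that signal best. Another deposited intensity table, from its values background-subtracted and quantile-normalized on a linear scale (99.97% of ranks within 0.1), served as an alternative. No scanner software or setting is given in the sources used here.

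Background was corrected in limma 3.58.1 (R 4.3.3) by normexp using the detection p-values, with an offset of 16, followed by quantile normalization and log2; the offset understates changes of dim genes, and quantile normalization forces 1 distribution on all arrays. A gene's value is that of its brightest probe by mean raw signal over the 6 arrays, kept if at least 3 arrays had detection p under 0.05. Unnamed probes stayed as separate items, giving 11674 items. Of 45281 probes, 34885 had 1 symbol in the platform annotation, 18 several and 10378 none here; Entrez IDs were set against GRCm38.p6 gene names, with 0 symbols updated. Groups were compared by limma's lmFit and eBayes, two-sided, with Benjamini-Hochberg adjustment over all items. "At least N-fold" is used where a gene was not detected in a group, taking, for each undetected array, its own value or the lowest detected value, whichever was higher. On simulated arrays of 16561 probes, 100% of 1-unit changes of either sign were recovered, and 84% of rises and 62% of falls of 0.5 units. Only 200 probes were changed, rises and falls in equal number, whereas 62.5% of all items were called in the data. The recovery rates may thus not carry over to the data. The changed probes were drawn from brighter probes only, and all probes were given 1 spread. Recovery was therefore not measured for members near background, such as Hspa1a, Hsf2, Hspa4 and Cryab. The members, gene lists and motifs were chosen with earlier results of these data known. All members are accounted for; full values are given for members called at 2-fold or more and for a set of index genes, and the 3 largest changes of each other list are named, other genes being chosen after their values were seen. The 17 alternatives changed background correction, table, offset, normalization, filter, moderation, probe choice and replicates.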

Additional observations from a re-analysis of the deposited data

How the results depend on the processing

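No count of calls moved by more than 1.5 times under any of 17 alternatives. The share of items called did move: with no detection filter it was 23.3% of 29453 items, against 62.5% of 11674 in the main run. Leaving out single arrays gave 11 to 13 members that rose, 5 to 8 that fell and 6463 to 6991 items changed. Of 21 called members, 14 kept their call and direction wherever they were measured, namely Bag3, Hsph1, Pfdn4, Tcp1, Cct3, Cct4, Hspb8, Dnajb6, Fkbp4, Hspa2, Hspa1a, Hspa4, Cryab and Bag4. Of these, Hspa1a was measured in 13 of the 17 settings and Hspa4 in 16. Both met the detection filter through the group where they were higher, so their kept calls under such a filter are no support for a change. Besides the losses named above, Ptges3 ended without the detection filter (adjusted p = 0.0623), and Hspa4l passed without vehicle replicate 3 (0.0493). Signs turned for members that never passed the test: the log2 fold change of Dnajb1 was 0.0136 with 1 median per array, and leaving out single arrays gave -0.3126 to 0.0122 for Dnajb1, -0.0132 to 0.2221 for Stip1, -0.0017 to 0.0733 for Ahsa1, -0.0230 to 0.1030 for Cdc37 and -0.0553 to 0.0258 for Pfdn1. The cause was not tested. The replicate block gave 14 members that rose, 7 that fell and 7322 items changed, and it ended no member's call. Same-numbered arrays deviated together at r = 0.12, 0.05 and 0.00 across items, so the numbers served as names. Signal over background limits dim members, whose sizes depend on the background step, among them the 7 not detected on every array and Hspa2: Hspa1a had a log2 fold change of -0.27 without background correction and -1.65 in the second deposited table. It could not be measured without any 1 of the vehicle arrays.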

Other observations

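Other promoter motifs were counted in the same windows, on both strands. The CRE core TGACGTCA, bound by ATF and CREB factors, occurred in 0 of 36 members and 2.03% of all genes, and the C/EBP-ATF core TGATGNAAT in 0 of 36 members and 1.08% of all genes. The shorter core TGACG, which the CRE contains, occurred in 18 of 36 members and 23.0% of all genes. In the other chaperone lists it occurred in 23 of 43 other cytosolic, 9 of 18 ER and 7 of 11 mitochondrial chaperone genes. Split by result, the members with it were 4 of 12 that rose, 3 of 5 that fell, 8 of 12 that did not pass the test and 3 of 7 without a test.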
